A study of Mus musculus with 31 samples.

Results

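Atp6v1b1, Slc26a4, Foxi1 and Slc4a1 are genes of the renal intercalated cell, the cell type of the collecting duct that secretes acid or base. They were followed across 31 BXD recombinant inbred mouse strains. A probe was taken as a member when its only gene name in the platform's probe table was one of these 4 symbols. This gave 4 of 23040 probes, 1 for each gene, so that the gene mean and the probe value are the same number here. Among all genes, 15096 had a probe with 1 gene name.

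Each array compared the RNA of a single BXD strain, pooled in equal amounts from 3 male mice aged 8 weeks and labelled with Alexa Fluor 647, with a common reference of male C57BL/6J mice aged 8 weeks labelled with Alexa Fluor 555. BXD strains descend from a cross of C57BL/6J with DBA/2J and are inbred, and the reference is thus the RNA of a parent strain. Strains BXD1-32 gave 24 arrays and strains BXD33-42 gave 7. There was 1 array for each strain and no dye swap, so that strain, array and dye effects cannot be told apart. Sample titles name kidney, while source and tissue fields name whole brain. A ratio between 2 samples of the same tissue does not show how abundant a transcript was, so the tissue could not be checked by marker levels. In bulk tissue, a change in the number of cells and a change in RNA per cell cannot be told apart.

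Values are log2 ratios of strain over C57BL/6J. The base of the logarithm and the direction of the ratio are the likely reading from the limma convention and are not stated in the labels, so every "higher" and "lower" rests on it. All 31 arrays held the same set of sorted values, with a median of 0.0127 and an SD of 0.602. Correlations between arrays over all probes ran from -0.0926 to 0.808. Arrays were divided into 6 clusters by average linkage of these correlations. The clusters are numbered by their lowest strain and held 10, 4, 1, 6, 9 and 1 arrays, with BXD15 alone in cluster 3 and BXD38 alone in cluster 6. The first principal component (PC1) of all probes held 20.6% of the variance. Over the 232 spots named Gapdh, the SD within an array ranged from 0.370 to 0.987 with a median of 0.526.

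Intercalated cells carry a vacuolar proton pump and an anion exchanger on opposite faces. In acid-secreting cells the pump lies at the urinary face and the bicarbonate exchanger Slc4a1 at the blood side. Base-secreting cells carry the chloride and bicarbonate exchanger pendrin, encoded by Slc26a4, at the urinary face. Atp6v1b1 encodes the B1 subunit of the cytosolic part of the pump, an isoform restricted to a few acid-secreting epithelia such as intercalated cells and the inner ear. Foxi1 encodes a forkhead transcription factor that intercalated cells need in order to form, and it is known to act on genes of the pump and of the exchangers. Slc4a1 is also the band 3 protein of red blood cells, whose transcripts reach tissue RNA with blood.

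Because Foxi1 is a forkhead factor, the promoters of the genes were searched for the forkhead core TAAACA and its longer form GTAAACA, on both strands, where every match to the longer form also holds the core. RefSeq promoters of GRCm38.p6, from 250 bases before to 50 after the start of transcription, were available for 3 of the 4 genes. They are shown so that the place of the motif can be compared between the pump subunit, the exchanger and the factor itself. The 250 bases before the start are printed, with capitals for the motif. The Atp6v1b1 sequence is chr6:83742767-83743016 on the plus strand, the Slc26a4 sequence chr12:31559985-31560234 on the minus strand, and the Foxi1 sequence chr11:34208090-34208339 on the minus strand.
Atp6v1b1: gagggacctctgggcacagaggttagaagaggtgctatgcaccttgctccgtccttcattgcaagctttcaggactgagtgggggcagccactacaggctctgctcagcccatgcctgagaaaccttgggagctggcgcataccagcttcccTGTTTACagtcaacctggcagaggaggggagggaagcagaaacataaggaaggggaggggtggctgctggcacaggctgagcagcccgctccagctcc
Slc26a4: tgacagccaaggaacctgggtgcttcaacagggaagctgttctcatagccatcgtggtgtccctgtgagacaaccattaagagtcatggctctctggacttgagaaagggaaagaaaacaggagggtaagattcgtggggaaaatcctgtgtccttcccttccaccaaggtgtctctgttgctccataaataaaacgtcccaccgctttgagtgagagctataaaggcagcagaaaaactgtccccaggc
Foxi1: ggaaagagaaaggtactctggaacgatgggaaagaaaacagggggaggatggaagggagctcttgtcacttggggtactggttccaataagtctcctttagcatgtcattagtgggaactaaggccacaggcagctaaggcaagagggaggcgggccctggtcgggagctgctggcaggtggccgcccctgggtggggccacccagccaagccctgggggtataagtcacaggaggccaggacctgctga

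The Atp6v1b1 window held 1 match to the longer form, on the minus strand, whose first printed base lies 98 bases before the start. The Slc26a4 and Foxi1 windows held no match to either form. Of the 32851 promoters of this length in the table, 3.65% held GTAAACA and 13.4% held TAAACA on either strand. A match describes the letters of the window and not a site bound by Foxi1.

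The first comparison asked whether the mean of each gene over the panel departed from the C57BL/6J reference. Atp6v1b1 was higher in the strains and Slc26a4 and Slc4a1 did not pass the test, while Foxi1 lay at the threshold. The test was limma's moderated test of the mean over 31 strains against 0, adjusted over all 23040 probes by the Benjamini-Hochberg method at 0.05. In all, 57.5% of probes passed it, 27.2% as higher and 30.3% as lower. The 2 members called higher and 0 called lower are thus a share of the 4 near that of all probes. The p-values rest on the spread between strains, so they leave out any dye or reference effect that all 31 arrays share.

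The pump subunit gene Atp6v1b1 had log2 ratios from -1.03 in BXD42 through a median of 0.33 to 0.69 in BXD20. It was above 0 in 26 of 31 strains, and the 5 strains below 0 were BXD9, BXD21, BXD28, BXD38 and BXD42. BXD42 stood well apart, since the next lowest strain, BXD38, was at -0.29. The mean was 0.26 ± 0.0622 (SE, n = 31 strains, adjusted p = 6.59e-04), a ratio of 1.20. A mean of this size or more was not rare: 63.4% of all probes had a smaller one in absolute size. Without BXD42 the mean was 0.30 ± 0.0491 (adjusted p = 4.56e-06), and with spot position removed it was 0.39 ± 0.0646.

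Foxi1, the transcription factor, had the widest range of the 4, from -1.07 in BXD6 through a median of 0.099 to 1.25 in BXD18, a ratio of 4.99 between the extremes. These 2 strains stood apart from their neighbours, which were BXD20 at -0.32 and BXD32 at 0.89. Foxi1 was above 0 in 20 of 31 strains, with a mean of 0.18 ± 0.0799 (SE, n = 31 strains, adjusted p = 0.04995). The adjusted p thus lay just under 0.05, and the call was lost without any of 20 of the strains and in BXD1-32 alone (0.15, adjusted p = 0.176).

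The pendrin gene Slc26a4 ranged from -0.63 in BXD28 through a median of 0.13 to 0.96 in BXD8. Strains were nearly evenly spread around 0, with 17 above and 14 below, and the mean of 0.13 ± 0.0738 did not pass (SE, n = 31 strains, adjusted p = 0.117). It passed narrowly with array weights (0.16, adjusted p = 0.0438) and with PC1 as a covariate (adjusted p = 0.0488), whereas with spot position removed it was 0.060 (adjusted p = 0.468). All 10 strains from BXD1 to BXD14 were above 0, from 0.13 to 0.96, whereas 7 of the 21 strains from BXD15 on were. This division by strain number was seen in the values, so no test of it is given. How many other probes divide in the same way was not counted. All of BXD1 to BXD14 lay in clusters 1 and 2, though clusters are numbered by their lowest strain. These clusters also held BXD20 at 0.69, and BXD27 at -0.012, BXD28 at -0.63 and BXD33 at -0.0044. Array cluster and strain order are thus not the same division.

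The exchanger gene Slc4a1 ranged from -0.51 in BXD2 through a median of -0.10 to 0.97 in BXD36, with BXD42 next at 0.71. It was above 0 in 14 strains and below 0 in 17, and the mean of -0.029 ± 0.0619 did not pass (SE, n = 31 strains, adjusted p = 0.708). With spot position removed the sign of the mean turned, to 0.049 (adjusted p = 0.475). Only 8.74% of all probes had a smaller mean in absolute size.

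**Figure D1:**
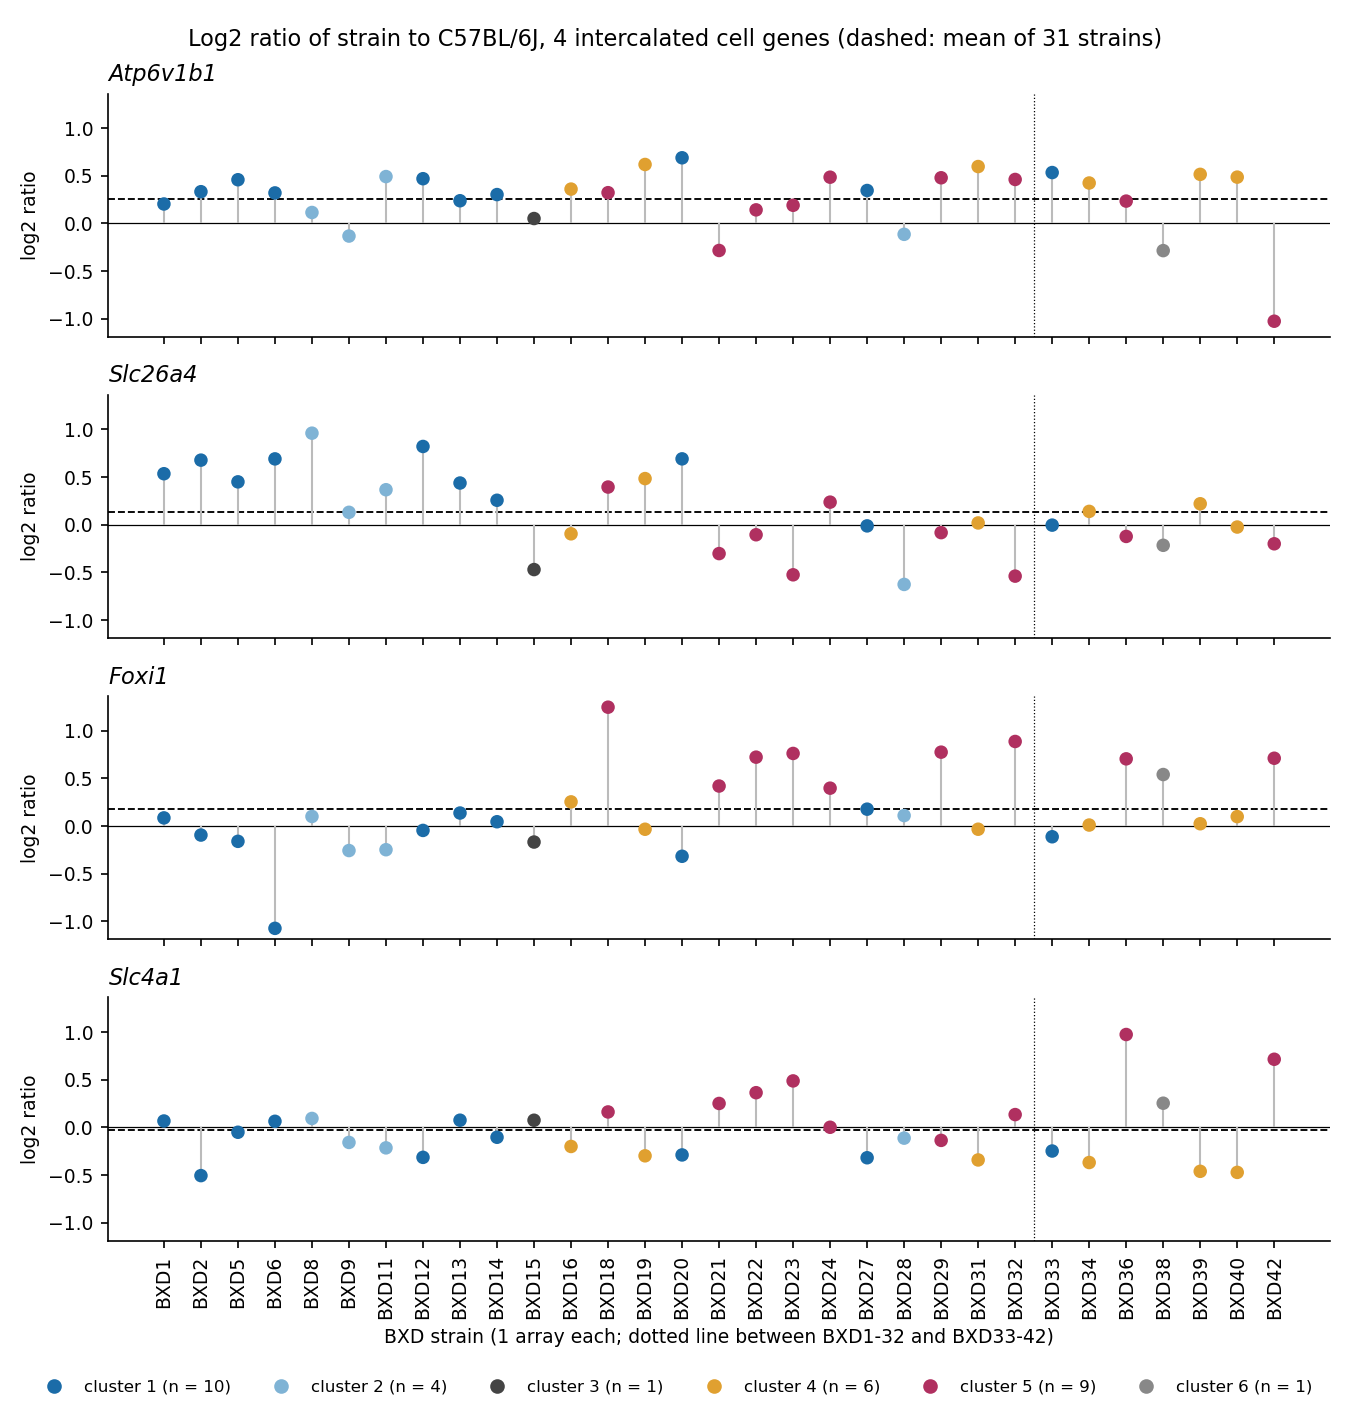
Log2 ratio of strain to C57BL/6J (y axis) of the 4 genes in each of the 31 strains (x axis, in strain order), 1 array per point, coloured by array cluster, with the mean as a dashed line. Atp6v1b1 lies above 0 in 26 strains with BXD42 far below at -1.03. Slc26a4 lies above 0 in all 10 strains up to BXD14, and Foxi1 is high in the arrays of cluster 5. How many other probes divide in these ways was not counted.

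**Figure D2:**
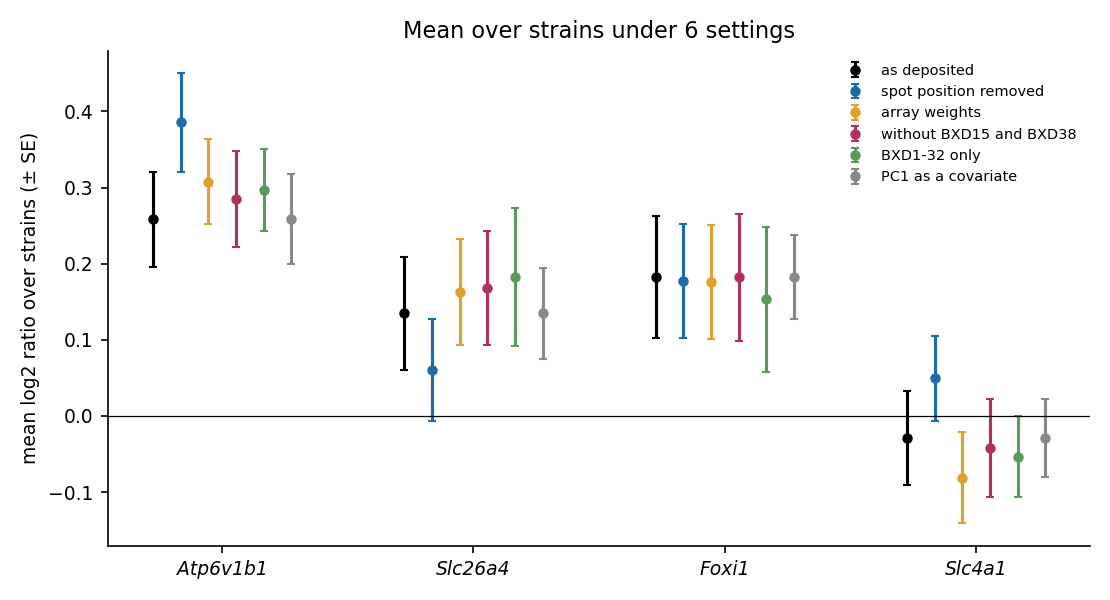
Mean log2 ratio over strains (y axis, ± SE) of the 4 genes (x axis) as deposited and under 5 other settings; BXD1-32 holds 24 arrays, the setting without BXD15 and BXD38 holds 29 and the others 31. Atp6v1b1 stays above 0 in each, while Slc4a1 lies on both sides of 0.

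The spread over strains did not set the 4 genes apart from other probes. Their SDs were 0.345 for Atp6v1b1, 0.419 for Slc26a4, 0.457 for Foxi1 and 0.343 for Slc4a1. Of all probes, 41.6%, 60.9%, 67.9% and 41.1% had a smaller SD, in that order. With a single array for each strain, whether strains that are neighbours in the order of values differ was not tested.

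BXD33-42 were next compared with BXD1-32, sets that differ in the time of their breeding by background knowledge and not by the labels. No difference between the sets passed for these genes: limma called 0 of 4 after adjustment and 0 of 4 at an unadjusted p under 0.05, where 0.00868% of all probes passed after adjustment and 12.6% without it. Foxi1 had a mean of 0.28 ± 0.356 (SD, n = 7) in BXD33-42 and 0.15 ± 0.485 (SD, n = 24) in BXD1-32, a difference of 0.13 ± 0.192 (SE, limma adjusted p = 0.832). For Slc26a4 the difference was -0.21 ± 0.175 (limma adjusted p = 0.654), and it shrank to -0.048 with spot position removed and to -0.031 with PC1 as a covariate. The values of BXD33-42 for Slc26a4, from -0.22 to 0.22, lay wholly within those of BXD1-32.

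For the other 2 genes the difference turned on single strains. Atp6v1b1 had -0.17 ± 0.148 (SE, limma adjusted p = 0.673), and 0.020 without BXD42. Slc4a1 had 0.11 ± 0.149 (SE, limma adjusted p = 0.812), and -0.044 without BXD36. In both genes the SD within BXD33-42 was the larger, 0.584 against 0.245 for Atp6v1b1 and 0.596 against 0.241 for Slc4a1. Without BXD42 the SD of Atp6v1b1 in BXD33-42 was 0.315, and without BXD36 that of Slc4a1 was 0.480. The difference in spread was not tested.

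The next comparison asked whether the 4 genes rose and fell together over strains. They did not move as 1 group. Foxi1 and Slc4a1 followed each other, the positive correlation of Atp6v1b1 with Slc26a4 did not pass, and the other 4 correlations were negative. Of the 6 correlations, 3 passed a 2-sided permutation test with 100000 resamples, adjusted over the 6.

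The closest relation joined the pump subunit and the exchanger in opposite directions. Atp6v1b1 and Slc4a1 had r = -0.598 (permutation p = 0.00107, adjusted p = 0.00597) and rho = -0.685 (permutation p = 6e-05, adjusted p = 3.60e-04, n = 31 strains). Only 7 of 31 strains were on the same side of the median in both. Without BXD38 and BXD42, the 2 strains farthest from the median of Atp6v1b1, r was -0.458. Of all other probes, 0.621% had a correlation with Atp6v1b1 of at least this size and 3.75% had one with Slc4a1.

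Foxi1 and Slc4a1, the factor and the exchanger, correlated at r = 0.534 (permutation p = 0.00199, adjusted p = 0.00597) and rho = 0.575 (permutation p = 9.6e-04, adjusted p = 0.00288, n = 31 strains). In 23 of 31 strains both were on the same side of their medians, and r was 0.690 without BXD6 and BXD18. A correlation of at least this size was held by 12.4% of other probes with Foxi1 and by 8.25% with Slc4a1.

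Foxi1 and Slc26a4 ran against each other, at r = -0.478 (permutation p = 0.00632, adjusted p = 0.0126) and rho = -0.547 (permutation p = 0.00169, adjusted p = 0.00338, n = 31 strains). Without BXD8 and BXD28, r was -0.546. The call was lost with spot position removed (r = -0.373, adjusted p = 0.0818 by permutation). Of other probes, 9.87% had a correlation of at least this size with Slc26a4 and 18.7% had one with Foxi1.

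The other 3 correlations did not pass by r. Atp6v1b1 with Slc26a4 had r = 0.377 (permutation p = 0.0344, adjusted p = 0.0516) and rho = 0.390 (permutation p = 0.0307, adjusted p = 0.0396), with r = 0.352 without BXD38 and BXD42. Slc26a4 with Slc4a1 had r = -0.358 (permutation p = 0.0483, adjusted p = 0.0580) and rho = -0.387 (permutation p = 0.0330, adjusted p = 0.0396), with r = -0.456 without BXD8 and BXD28. Both pairs thus passed by rank alone. Atp6v1b1 with Foxi1 had r = -0.272 (permutation p = 0.138, adjusted p = 0.138) and rho = -0.327 (permutation p = 0.0721, adjusted p = 0.0721), with r = -0.120 without BXD38 and BXD42. Each of these has n = 31 strains.

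**Figure D3:**
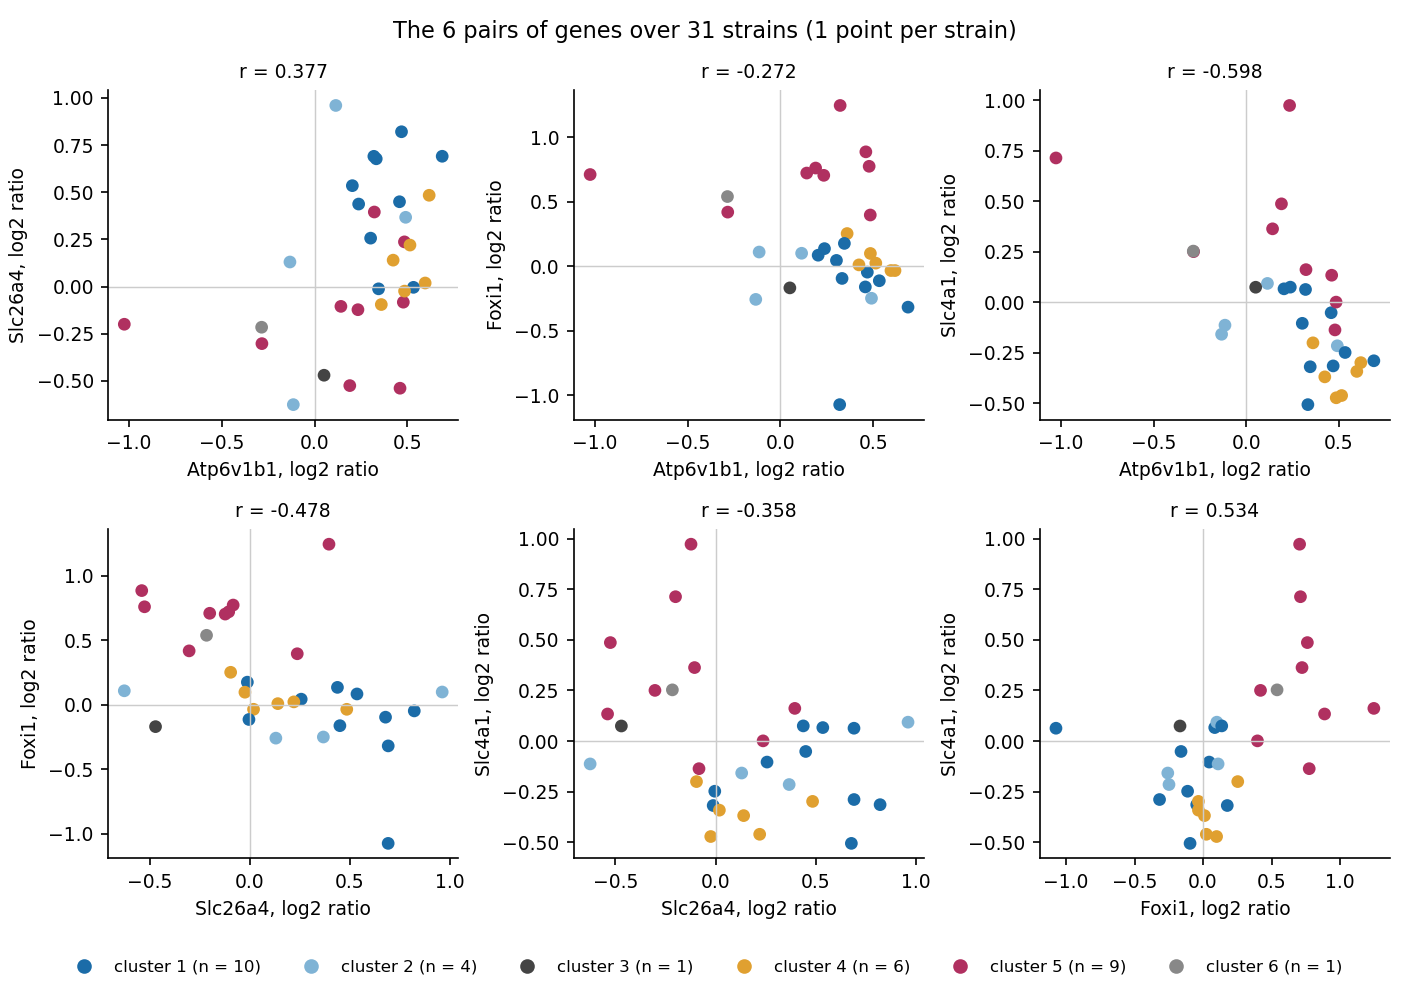
Log2 ratios of 1 gene (x axis) against another (y axis) for the 6 pairs, 1 point per strain, coloured by array cluster. The clearest slope is the negative one of Atp6v1b1 and Slc4a1 (r = -0.598). The arrays of cluster 5 and BXD38 form the high end of Foxi1 in each panel that shows it. How many other probes divide in this way was not counted.

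These relations were set against the structure shared by whole arrays. Foxi1 followed PC1 at r = 0.756 (permutation p = 1e-05, the smallest that the resamples can give, adjusted p = 1.6e-04) and rho = 0.728 (adjusted p = 2.4e-04), where the sign of PC1 was turned so that Foxi1 is positive. Slc26a4 ran against PC1 at r = -0.627 (permutation p = 1.7e-04, adjusted p = 0.00101) and rho = -0.701 (adjusted p = 2.4e-04). Slc4a1 followed it at r = 0.613 (permutation p = 1.9e-04, adjusted p = 0.00101) and rho = 0.564 (adjusted p = 0.00619). Atp6v1b1 did not pass, at r = -0.362 (permutation p = 0.0405, adjusted p = 0.0926) and rho = -0.294 (adjusted p = 0.174). Without the 2 strains of most extreme PC1 the values of r were 0.729, -0.590, 0.559 and -0.185, each over 29 strains. Adjustment was over a family of 16 correlations, chosen after the data were seen.

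With PC1 removed from each gene, the correlation of Atp6v1b1 and Slc4a1 kept its call at r = -0.510 (adjusted p = 0.0205 by permutation). That of Foxi1 and Slc4a1 fell to 0.136 (adjusted p = 0.93 by permutation) and that of Slc26a4 and Foxi1 to -0.00840 (adjusted p = 0.986 by permutation). The 9 strains of cluster 5 had Foxi1 at 0.40 or more. BXD38, alone in cluster 6, was at 0.54, and the other 21 strains were at 0.25 or less. Joining BXD38 to cluster 5 followed the Foxi1 values, and how many other probes divide in the same way was not counted.

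Within the 3 clusters of at least 6 arrays, 0 of 18 correlations passed by permutation tests, exact below 10 arrays, and 1 had an unadjusted p under 0.05. Atp6v1b1 and Slc4a1 kept a negative sign in each, at r = -0.477 in cluster 1 (n = 10), -0.246 in cluster 4 (n = 6) and -0.518 in cluster 5 (n = 9), with adjusted permutation p of 0.641, 0.802 and 0.641 (exact for clusters 4 and 5). Foxi1 and Slc4a1 did not keep theirs, at -0.220, 0.414 and -0.0330, and neither did Slc26a4 and Foxi1, at -0.422, -0.665 and 0.208. In cluster 4 all 6 strains had Atp6v1b1 between 0.36 and 0.62 and Slc4a1 between -0.47 and -0.20. In cluster 5 the medians were 0.23 and 0.25.

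**Figure D4:**
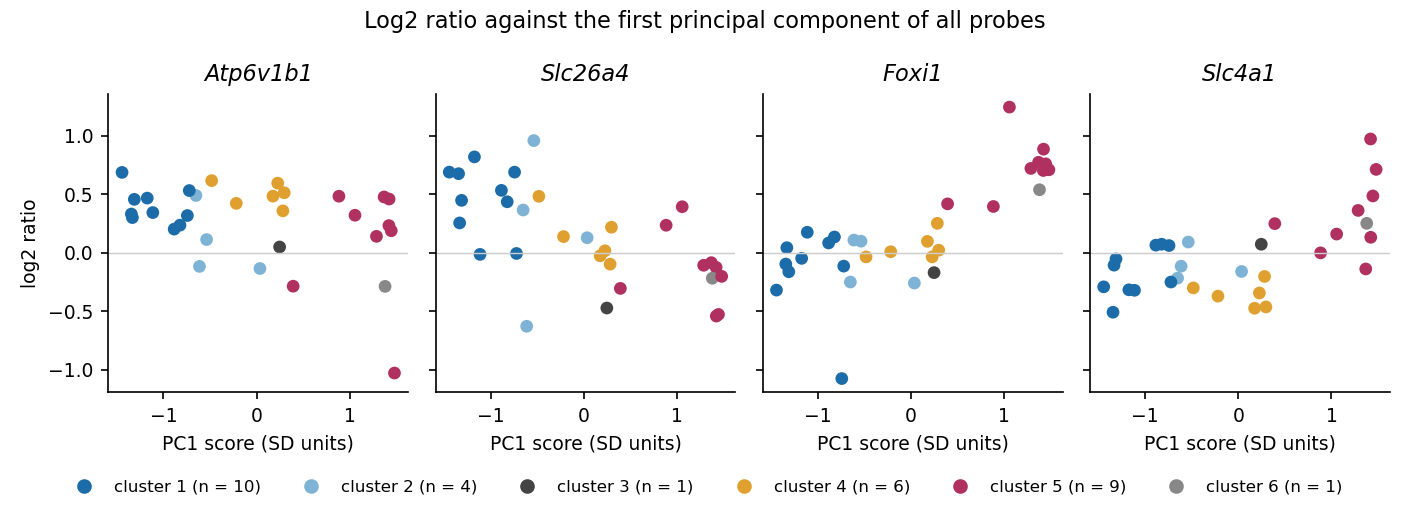
Log2 ratio (y axis) of each gene against the score of the strain's array on the first principal component of all probes (x axis, in SD units), 1 point per strain, coloured by array cluster. Foxi1 (r = 0.756) and Slc4a1 (r = 0.613) climb with the score, Slc26a4 (r = -0.627) declines, and the relation of Atp6v1b1 (r = -0.362) did not pass.

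Markers of other cell types were followed beside these relations. Of 24 red cell genes listed, 15 had a probe with 1 gene name, and their mean ran from -0.34 in BXD8 to 0.13 in BXD1. Slc4a1, itself a red cell gene, had r = -0.246 with that mean (permutation p = 0.182, adjusted p = 0.224) and rho = -0.369 (adjusted p = 0.0953, n = 31 strains), with r = -0.280 without the 2 strains of most extreme mean. Of the 15 genes, 6 had a positive correlation with Slc4a1, from which Alas2 was highest at r = 0.402 and the globin gene Hba-a1 was at 0.122. The lowest of the 15 was Rhd at -0.427. None was over 0.5. Of other probes, 8.25% reached 0.534 in absolute size with Slc4a1, which is a higher threshold and covers either sign. The share of all probes with a positive r over 0.5 was not counted, so nothing is drawn from the count of 0 in 15. The part of blood in the Slc4a1 values was not tested.

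Principal cells, the water- and sodium-absorbing neighbours of intercalated cells, were represented by 12 of 13 listed genes. Their mean, from -0.24 in BXD15 to 0.40 in BXD42, rose with Foxi1 at r = 0.566 (permutation p = 0.001, adjusted p = 0.004) and rho = 0.450 (adjusted p = 0.0368, n = 31 strains). With Slc4a1 it had r = 0.453 (permutation p = 0.0103, adjusted p = 0.0275) and rho = 0.341 (adjusted p = 0.109). Without the 2 strains of most extreme list mean these values of r were 0.533 and 0.384. The mean of 18 of 19 proximal tubule genes, from -0.52 in BXD38 to 1.08 in BXD2, rose with Slc26a4 at r = 0.538 (permutation p = 0.00175, adjusted p = 0.0056) and rho = 0.486 (adjusted p = 0.0262), with r = 0.486 without the 2 most extreme strains. With the principal cell mean, Atp6v1b1 had r = -0.288 and Slc26a4 -0.0724, and neither passed (permutation, adjusted p = 0.187 and 0.707). With the proximal tubule mean, Atp6v1b1 had r = 0.367, Foxi1 -0.160 and Slc4a1 -0.274, and none passed (permutation, adjusted p = 0.0932, 0.443 and 0.198). BXD42 also had the highest PC1 score, and the correlations with list means were not recomputed with PC1 removed. The part of these cells in the 4 genes' values was not tested.

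The wider set of acid-base genes was described by counts from the same fit on gene means, in which 55.8% of 15096 genes passed, 26.5% as higher and 29.3% as lower, with a median of the means of -0.013. Of 28 genes of intercalated cell identity, 17 had a probe with 1 gene name, 6 were higher, 2 were lower and 9 were not called. The median of their means was 0.029. The strongest was Car15, a membrane-bound carbonic anhydrase, at 0.51 ± 0.0752 (adjusted p = 7.48e-07, above 0 in 25 of 31 strains). The 2 lower genes were the insulin receptor-related receptor gene Insrr (-0.20, adjusted p = 0.0353) and the Notch ligand gene Jag1 (-0.19, adjusted p = 0.0154). These were named after their values were seen. The counts of this list include the 4 genes themselves, with Atp6v1b1 and Foxi1 as higher and Slc26a4 and Slc4a1 as not called.

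Proton pump genes, with Atp6v1b1 counted among the higher, had 10 of 19 higher, 2 lower and 7 not called, with a median of 0.12. Atp6v0b, of the membrane part, was above 0 in all 31 strains at 0.81 ± 0.0845 (adjusted p = 1.39e-09), and Atp6v1g1, of the stalk, stood at 0.52 ± 0.0649 (adjusted p = 4.08e-08). Tcirg1, the a3 subunit of bone and lysosome pumps, was lower at -1.49 ± 0.109 (adjusted p = 2.64e-12). The B2 gene Atp6v1b2, the widely expressed counterpart of Atp6v1b1, was higher by 0.23 (adjusted p = 2.77e-04), and the a4 gene Atp6v0a4, which partners B1 in intercalated cells, had a mean of -0.21 that was not called (adjusted p = 0.225).

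Bicarbonate and anion exchange genes were seldom called, with 1 of 11 higher, 1 lower and 9 not called, and a median of 0.051. Slc26a4 and Slc4a1 are among those not called. The higher one was Slc4a4, the proximal tubule sodium bicarbonate cotransporter, at 0.62 ± 0.130 (adjusted p = 1.24e-04). The lower one, Slc9a3, a sodium and proton exchanger of the proximal tubule, was at -0.38 (adjusted p = 4.56e-04) and was named after its value was seen. Genes of carbonic anhydrases and ammonia handling had 7 of 11 higher, 0 lower and 4 not called, with a median of 0.19. The mitochondrial carbonic anhydrase gene Car5a led them at 0.67 ± 0.0988 (adjusted p = 7.93e-07). The ammonia channel gene Rhbg was higher by 0.19 (adjusted p = 0.0107), while Rhcg, its counterpart, was at 0.021 (adjusted p = 0.728).

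**Figure D5:**
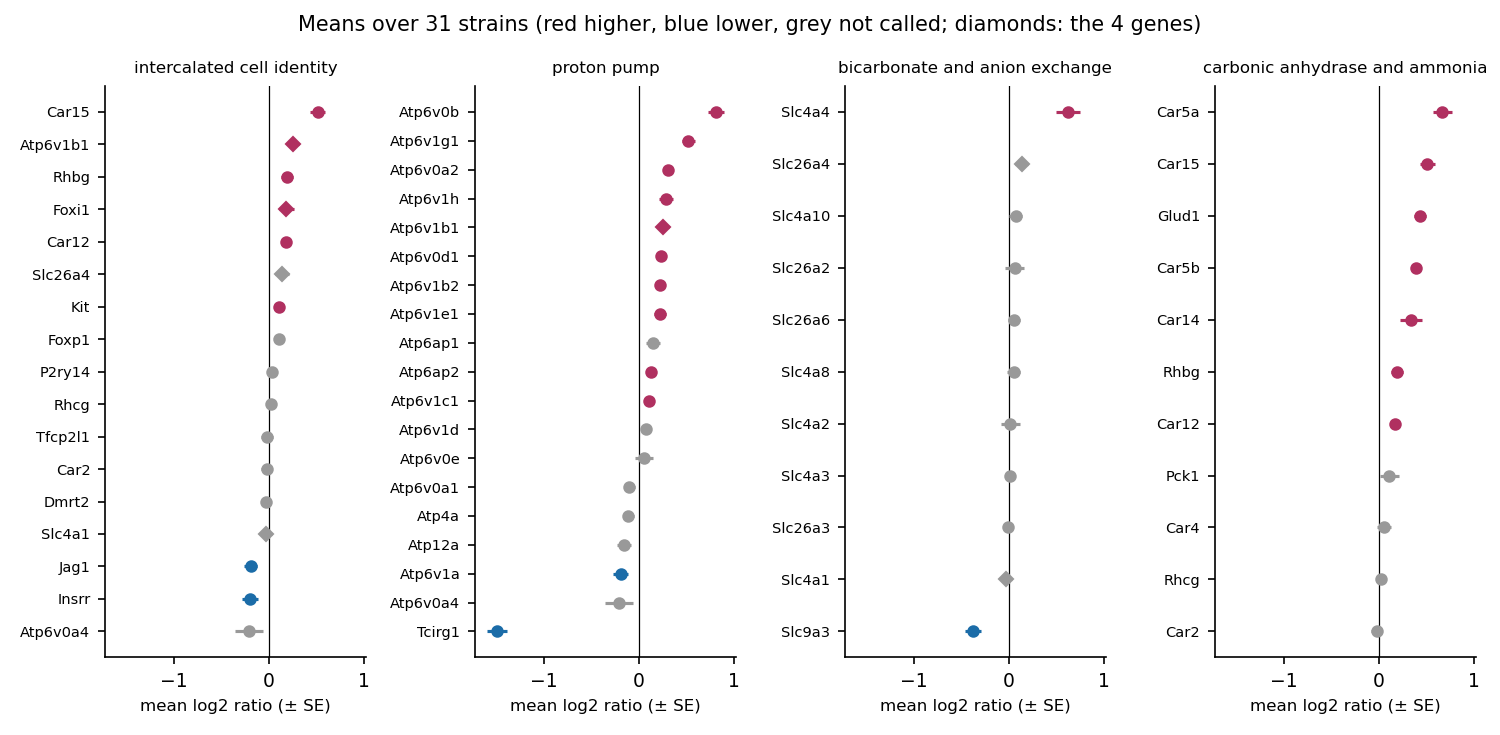
Mean log2 ratio over 31 strains (x axis, ± SE) of the measured genes of 4 lists (y axis), red where higher and blue where lower after adjustment over all genes, grey where not called, with diamonds for the 4 genes. Means are mostly within 0.5 of 0, with Tcirg1 (-1.49) and Atp6v0b (0.81) at the extremes.

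Whether other intercalated cell genes followed the 4 was examined by 69 correlations over strains, each with 2-sided permutation p adjusted over the 69, a family chosen after the data were seen. Slc26a4 had 3 of 13 positive calls by r, with Car15 (r = 0.583, permutation p = 6.2e-04, adjusted p = 0.0129), the ammonia channel gene Rhcg (r = 0.505, permutation p = 0.00312, adjusted p = 0.0308) and Insrr (r = 0.499, permutation p = 0.00404, adjusted p = 0.0310). By rho, Car15 alone kept its call (rho = 0.593, permutation p = 6.2e-04, adjusted p = 0.0131). Correlations of at least these sizes with Slc26a4 were held by 2.30% of other probes for Car15, 7.20% for Rhcg and 7.74% for Insrr. With PC1 removed, r was 0.454 for Car15, 0.568 for Rhcg and 0.109 for Insrr. Without BXD8 and BXD28 the 3 values were 0.551, 0.472 and 0.582.

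Slc4a1 ran against the purinergic receptor gene P2ry14 (r = -0.591, permutation p = 3.7e-04, adjusted p = 0.0129; rho = -0.607, adjusted p = 0.0131) and against Insrr (r = -0.597, permutation p = 5.6e-04, adjusted p = 0.0129; rho = -0.505, adjusted p = 0.0552). Of other probes, 4.08% and 3.78% had correlations of at least these sizes with Slc4a1. With PC1 removed these were -0.372 and -0.298, and without the 2 strains farthest from the median of Slc4a1 they were -0.559 and -0.523. P2ry14 itself varied little, from -0.27 to 0.37 with an SD of 0.155, where the median SD over all genes was 0.358. Foxi1 followed another forkhead gene, Foxp1 (r = 0.573, permutation p = 7.5e-04, adjusted p = 0.0129; rho = 0.592, adjusted p = 0.0131), at 0.461 without BXD6 and BXD18 and at 0.229 with PC1 removed, and 8.84% of other probes had a correlation of at least that size with Foxi1. Foxi1 with Insrr was at r = -0.503 (permutation p = 0.00394, adjusted p = 0.0310; rho = -0.452, adjusted p = 0.0807) and at 0.0565 with PC1 removed, a size reached by 15.9% of other probes before that removal. Slc4a1 with Foxp1 passed by rank alone (r = 0.428, permutation p = 0.0171, adjusted p = 0.0843; rho = 0.583, adjusted p = 0.0131).

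Atp6v1b1 was compared with Atp6v0a4 and 17 further pump genes. It rose with the stalk subunit gene Atp6v1e1 (r = 0.552, permutation p = 0.00127, adjusted p = 0.0175; rho = 0.371, adjusted p = 0.168) and with Atp6v0e of the membrane part (r = 0.484, permutation p = 0.00749, adjusted p = 0.0470; rho = 0.463, adjusted p = 0.0774). It ran against Tcirg1 (r = -0.524, permutation p = 0.00199, adjusted p = 0.0229; rho = -0.458, adjusted p = 0.0774). Correlations of at least these sizes with Atp6v1b1 were held by 1.45%, 4.24% and 2.30% of other probes. None of the 3 passed by rho, and without BXD38 and BXD42 the values of r were 0.279, 0.353 and -0.333. Its a4 partner Atp6v0a4 had r = 0.122 (permutation p = 0.511, adjusted p = 0.720; rho = 0.0653, adjusted p = 0.881), and r = 0.471 without BXD38 and BXD42. The B2 gene Atp6v1b2 had r = 0.0295 (permutation p = 0.876, adjusted p = 0.919; rho = 0.0645, adjusted p = 0.881). Foxp1, with r = -0.481 (permutation p = 0.00666, adjusted p = 0.0460; rho = -0.406, adjusted p = 0.139), was the only further call for Atp6v1b1, at a size held by 4.44% of other probes.

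Over all probes with 1 gene name, those most like each gene were named by Pearson correlation over the 31 strains, as a description. For Atp6v1b1 they were the liver and pancreas transcription factor gene Onecut1 (0.722), Entpd6 (0.708) and the fatty acid desaturase gene Fads2 (0.706). For Slc26a4 they were the mitochondrial ribosomal gene Mrpl11 (0.758), the glutathione synthetase gene Gss (0.746) and Abhd11 (0.744). For Foxi1 they were 1810064F22Rik (0.863), the microtubule protein gene Map2 (0.839) and Dock8 (0.838), and for Slc4a1 the prostaglandin receptor gene Ptgdr2 (0.785), the chemokine gene Xcl1 (0.783) and 4921536K21Rik (0.776). None of these 12 genes is among the listed intercalated cell genes, but only 17 of the 15096 measured genes are. The absence is thus near what the share of all genes gives. The 3 probes most like Foxi1 followed PC1 themselves, at correlations of 0.854, 0.689 and 0.787 in the order named. Those most like Slc4a1 did so too, at 0.689, 0.565 and 0.547. Those most like Slc26a4 ran against PC1 at -0.711, -0.546 and -0.729, and those most like Atp6v1b1 at -0.258, -0.459 and -0.526.

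Neighbours on the chromosome were compared last, since adjacent genes in a BXD strain mostly share the parental allele. The nearest measured genes in RefSeq order were Vax2 and 1700124L16Rik for Atp6v1b1, Cbll1 and Bcap29 for Slc26a4, Lcp2 and Dock2 for Foxi1, and Ubtf and Rundc3a for Slc4a1. By permutation 0 of these 8 correlations passed after adjustment over the 8, and 3 had an unadjusted p under 0.05, with 1700124L16Rik, Dock2 and Rundc3a. Correlations of at least those sizes were held by 16.6% of other probes with Atp6v1b1, 29.9% with Foxi1 and 19.7% with Slc4a1. The largest was that of Slc4a1 with Rundc3a, at r = 0.434 (permutation p = 0.0189, adjusted p = 0.111) and rho = 0.413 (adjusted p = 0.0864, n = 31 strains). Foxi1 with Dock2 was at r = 0.395 (permutation p = 0.0277, adjusted p = 0.111) and rho = 0.428 (adjusted p = 0.0864).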

How the data were processed

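Values were the series' deposited log2 ratios, which the authors made with R 2.0.0 and limma, per the submitters' processing notes; the steps are not given in the sources used here. Sorted values were identical in 31 arrays, as quantile normalization gives. Spot intensities were not analysed here, and the number of arrays limits the precision. Of 23040 probes, 16874 had 1 gene name, 134 several and 6032 none; 16196 were matched by gene number to RefSeq symbols (GRCm38.p6). Fits used lmFit and eBayes of limma 3.58.1 in R 4.3.3 on all probes, or on means of the probes of a gene. P-values measure the spread between arrays of strains. Spot position was removed by subtracting, in each array, the median of spots of equal position in a repeat of 480. Correlations used numpy 2.4.6 and scipy 1.17.1. Scripts were tested on simulated data. Members and lists were chosen with earlier results of these data known. By rule, list genes past 0.05 with a mean of at least 0.5 in size (at most 4 per list), the 3 most correlated probes and nearest neighbours were named. The lists were intercalated cell identity, proton pump, bicarbonate and anion exchange, carbonic anhydrase and ammonia, principal cell, erythroid, proximal tubule, neuron and glia.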

Additional observations from a re-analysis of the deposited data

How the results depend on the processing

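Of 36 recomputed means of the 4 genes under other settings, 26 kept direction and side of the threshold. Atp6v1b1 lost its call against a change of 0.2 (treat, mean 0.26, adjusted p = 0.505). Foxi1 lost its call, with means of 0.18 under robust eBayes, without BXD15 and BXD38, without the 10% of probes of smallest SD and under treat, 0.17 with arrays centred on their medians and 0.15 in BXD1-32 alone. Slc26a4 gained a call with array weights (0.16) and with PC1 as a covariate (0.13), and the mean of Slc4a1 turned to 0.049 with spot position removed. Leaving out each strain in turn, chosen after seeing the data as were the correlation families and clusters, gave means of 0.24 to 0.30 for Atp6v1b1, 0.11 to 0.16 for Slc26a4, 0.15 to 0.22 for Foxi1 and -0.062 to -0.013 for Slc4a1. Foxi1 kept its call only without BXD2, BXD5, BXD6, BXD9, BXD11, BXD12, BXD15, BXD19, BXD20, BXD31 or BXD33 (adjusted p over all 31 from 0.00835 to 0.0938).

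The difference between strain sets was never called. It reversed for Foxi1 to -0.12 and for Slc4a1 to -0.043 with PC1 as a covariate, and for Slc4a1 to -0.016 with array weights. Without single strains it ran from -0.24 to 0.020 for Atp6v1b1 (reversed without BXD42), -0.25 to -0.18 for Slc26a4, 0.057 to 0.19 for Foxi1 and -0.044 to 0.20 for Slc4a1 (reversed without BXD36, -0.044, or BXD42, -0.000691).

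Of 30 recomputed correlations, 23 kept direction and side. Spearman's rho brought calls for Atp6v1b1 with Slc26a4 (0.390) and Slc26a4 with Slc4a1 (-0.387). Slc26a4 with Foxi1 lost its call with spot position removed (-0.373) and with PC1 removed (-0.00840), as did Foxi1 with Slc4a1 (0.136). Removing PC1 reversed Atp6v1b1 with Foxi1 (0.00292) and Slc26a4 with Slc4a1 (0.0423). Without single strains r ran from -0.703 to -0.484 for Atp6v1b1 with Slc4a1, 0.5004 to 0.651 for Foxi1 with Slc4a1, -0.590 to -0.423 for Slc26a4 with Foxi1, 0.336 to 0.437 for Atp6v1b1 with Slc26a4, -0.412 to -0.301 for Slc26a4 with Slc4a1 and -0.322 to -0.175 for Atp6v1b1 with Foxi1. The call was gained without any of BXD1, BXD6, BXD8, BXD9, BXD16, BXD18, BXD29, BXD31, BXD32, BXD33 or BXD40 for Atp6v1b1 with Slc26a4, and without any of BXD1, BXD6, BXD8, BXD18, BXD28 or BXD40 for Slc26a4 with Slc4a1.

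Counts of called genes stayed within 1.5 times for 62 of 63 recomputed list counts, the exception being 5 red cell genes in BXD1-32 alone against 8. With spot position removed, the calls were 8 higher and 4 lower for proton pump genes, 4 and 3 for intercalated cell genes, 5 and 1 for carbonic anhydrase and ammonia genes, 2 and 1 for bicarbonate and anion exchange genes, 2 and 7 for red cell genes and 2 and 4 for neuron genes. The cause of these changes was not tested. No paired analysis was possible because each strain has a single array and the sets share no strain. A single array per strain gives no measure of array error, and signal over background is unknown.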

Other observations

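Lists outside the acid-base genes were counted in the same fit of gene means against C57BL/6J. Principal cell genes had 4 of 12 higher and 3 lower (median -0.00296), and proximal tubule genes had 8 of 18 higher and 1 lower (median 0.20), with the endocytic receptor gene Lrp2 at 0.67 ± 0.0819 (adjusted p = 3.13e-08), Cyp4b1 at 0.60 ± 0.201 (adjusted p = 0.0109) and the kidney androgen-regulated gene Kap at 0.55 ± 0.214 (adjusted p = 0.0282). Red cell genes had 4 of 15 higher and 4 lower (median -0.030), or 2 higher and 7 lower with spot position removed, with the beta-spectrin gene Sptb lower at -0.55 ± 0.0758 (adjusted p = 2.46e-07). Neuron genes had 4 of 12 higher and 5 lower (median -0.046), with the synapsin gene Syn1 at -0.57 ± 0.0819 (adjusted p = 5.46e-07) and the enolase gene Eno2 at -0.52 ± 0.109 (adjusted p = 1.45e-04). Glia genes had 4 of 12 higher and 2 lower (median 0.016).

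The titles and the tissue fields name different tissues, and the spread of these lists over strains is given for that reason. The median SD over strains was 0.490 for proximal tubule genes, 0.306 for neuron genes and 0.269 for glia genes, against 0.345 for intercalated cell genes and 0.358 for all genes. Kap ranged from -1.67 to 3.11 over the 31 strains and Cyp4b1 from -2.88 to 3.32. Slc5a2, a glucose transporter gene of the same list named after its values were seen, ranged from -2.43 to 2.63. These had the largest SDs of the proximal tubule list. Slc6a19 (SD 0.321), Fbp1 (0.334), Slc13a1 (0.354) and Aqp1 (0.356) of that list were below the median SD of all genes. Eno2, with the largest SD of the neuron list (0.642), ranged from -2.02 to 0.44. What these spreads say of the tissue was not tested.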
